A study of Mus musculus with 6 samples.

Results

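Malat1 and Neat1 are long noncoding RNAs that stay in the nucleus, and the data described here are the alignment records that fell on these 2 genes in cultured mouse cells of 2 kinds, embryonic stem cells (mES) and embryonic fibroblasts (mEF). A record was assigned to a gene when its 5′ end lay on the minus strand of chromosome 19 (mm9) within the gene or the 1000 nt on either side of it. The Malat1 window was chr19:5795690-5802671, and the Neat1 window, which covers its short isoform, was chr19:5842302-5845478. Of the 1209744 records of both cell types, 1350 met this rule, 1292 of them on Malat1 and 58 on Neat1.

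The records come from a test of drop-based single-cell labeling (Hi-SCL), in which each cell was lysed in a drop and its RNA was primed with an oligo(dT) primer that carried the barcode of that drop. The mES were of line V6.5 and were grown with LIF, and the mEF were of the Globalstem GSC-6002 stock (10.5 p.c.) and were grown without it. Both cell types are named in the labels of each of the 6 libraries. Using the barcodes, the authors gathered the reads of each cell type into a single pool, the mES aggregate and the mEF aggregate. For these files the sources used here do not say whether a barcode was assigned by the nominal cell type of its sample or by clustering the transcripts, and every ratio of mES to mEF depends on that assignment. Drops with more than 1 cell, and RNA of other drops under a barcode, which the study describes, were not removed here, since the records carry no barcode. No replicate of a cell type is labelled, and the cell types could not be compared by a test. Intervals are exact at 95% and cover counting error only, taking each record or each position as independent. Copies of 1 molecule made by PCR are not independent, so the intervals by records are too narrow for counts of molecules. In a pool, fewer cells with an RNA and less of that RNA per cell cannot be told apart.

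Malat1 is among the most abundant nuclear RNAs of mammalian cells and gathers in nuclear speckles, the bodies where splicing factors are stored. Its 3′ end is not made by polyadenylation: the primary transcript is cut at a tRNA-like structure, which is released as the small mascRNA, and the end left on Malat1 is protected by a triple helix that includes a genomically encoded stretch rich in A. Neat1 is the scaffold of paraspeckles. Its short isoform ends at a polyadenylation signal, and its long isoform continues past that signal and ends in the same manner as Malat1. Both genes are transcribed from the same strand.

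Since the primer needs a run of A to anneal, the ends of the annotated transcripts of both RNAs are shown first. Malat1-201 is 6983 nt long and Neat1-202, the short isoform, is 3004 nt long in GENCODE M21 (GRCm38). The capitals mark the last AATAAA hexamer, the usual polyadenylation signal, in the last 60 bases of each RNA.
Malat1-201 last 60 bases: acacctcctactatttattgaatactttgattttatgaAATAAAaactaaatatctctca
Neat1-202 last 60 bases: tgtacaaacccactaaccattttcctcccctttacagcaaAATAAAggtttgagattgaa
The hexamer ended 16 nt before the 3′ end of Malat1 and 14 nt before that of Neat1. It occurred in the last 60 bases of 38425 of the 141515 annotated transcripts (27.2%), searched on the strand of the RNA. Malat1-201 held it 4 times in all and Neat1-202 held it 2 times.

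The annotated 3′ end of Malat1 lies past the place where the primary transcript is cut. RefSeq (GRCm38.p6) places Mascrna at chr19:5795924-5795981 on the same strand, from 291 to 234 nt before the last base of its Malat1 entry. The longest run of A in Malat1-201 counted 12 bases and lay 298 nt before the annotated end, just ahead of Mascrna. It belongs to the A-rich stretch of the mature end and is shown with its surroundings, in capitals.
Malat1-201 longest A run: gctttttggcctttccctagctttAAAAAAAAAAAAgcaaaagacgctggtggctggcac
A run at least this long was found in 678 of the 2596 annotated transcripts that are as long or longer (26.1%). The longest run of A in Neat1-202 was 5 bases. These sequences are of another build than the deposited records, so they locate features by distance from the RNA ends, and the bases at the recorded positions themselves were not read.

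The start of Malat1 is shown because many fibroblast records began there. The sequence is the RefSeq entry at chr19:5802623-5802922 on the minus strand of GRCm38.p6, with the 250 bases before the start in lower case and the first 50 bases of the RNA in capitals.
Malat1 promoter: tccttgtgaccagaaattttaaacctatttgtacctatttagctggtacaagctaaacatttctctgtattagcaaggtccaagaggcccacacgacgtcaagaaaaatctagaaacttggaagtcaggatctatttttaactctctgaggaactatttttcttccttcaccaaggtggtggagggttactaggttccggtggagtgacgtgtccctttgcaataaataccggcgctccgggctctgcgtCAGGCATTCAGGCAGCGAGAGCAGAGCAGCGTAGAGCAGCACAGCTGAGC
The 50 bases in capitals equalled the first 50 of Malat1-201. Neat1 was without an entry in that table.

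Depth was 750739 records (612194 reads) for mES and 459005 records (387359 reads) for mEF. Levels are given as CPM, records per 1000000 records of the same pool. The read names separate 3 sequencing runs. Of the positions seen in run 2, 93.4% in mES and 94.5% in mEF were also seen in run 1, whereas 8.68% and 8.71% of the run 3 positions were seen in runs 1 and 2. Runs 1 and 2 are therefore joined as library set 1 (641929 mES and 429324 mEF records) and run 3 as library set 2 (108810 and 29681 records), a grouping made from the read names and positions and not from the labels. The sets differed in composition. The modal alignment was 35 nt long in set 1 and 45 nt in set 2, the mitochondrial chromosome held 1.61% of mES and 2.80% of mEF records in set 1 against 8.84% and 5.47% in set 2, and 1 locus on chromosome 17 held 1.54% and 0.552% in set 1 against 32.0% and 28.0% in set 2. The part these differences have in the values below was not tested. Markers of the cell types and other nuclear RNAs were not analysed here, since no mm9 annotation was used.

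Over all runs, Malat1 stood at almost the same level in both cell types. It had 807 records in mES, or 1075 CPM (1002 to 1152), and 485 records in mEF, or 1057 CPM (965 to 1155). The ratio of mES to mEF was 1.02 (0.908 to 1.14), an interval that includes equal levels. With the second copies of reads listed 2 times dropped, its log2 value went from 0.02 to -0.23, outside that interval. Counting each 5′ position once, Malat1 had 84 positions in mES and 42 in mEF, and their ratio per total of positions was 0.936 (0.639 to 1.39). As a reference, 4321 loci of the genome, made of 5′ ends on 1 strand at most 500 nt apart, held at least 50 records, and 30.2% of these loci passed a 4-fold excess in mES and 24.6% passed it in mEF. Malat1 was in neither group.

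This similarity of the pooled levels was the sum of unlike runs. In mES, Malat1 had 155 records in run 1, 86 in run 2 and 566 in run 3, which is 353, 423 and 5202 CPM. In mEF it had 249, 98 and 138 records, which is 847, 724 and 4649 CPM. Runs 1 and 2 were close to each other within each cell type and lower in mES than in mEF, and run 3 stood far above both in both cell types.

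**Figure D1:**
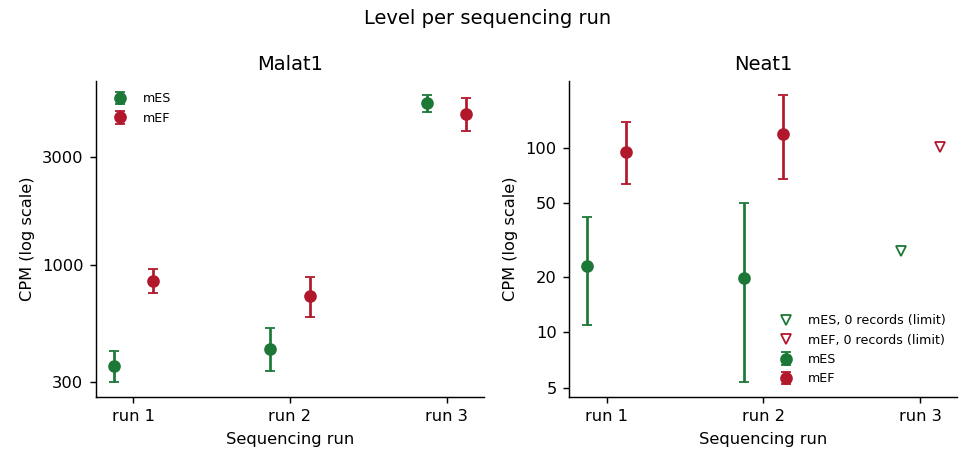
Level of Malat1 (left) and Neat1 (right) in CPM on a log scale for each sequencing run, mES in green and mEF in red, with 95% exact Poisson intervals as bars. Open triangles stand at 3 counts in place of 0 records. In run 3 Malat1 reached 5202 CPM (mES) and 4649 CPM (mEF), and Neat1 had no record there.

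Within library set 1, Malat1 was lower in stem cells than in fibroblasts. Its level was 375 CPM (330 to 426) in mES and in mEF 808 CPM (725 to 898), a ratio of 0.464 (0.392 to 0.549), or 2.15-fold (1.82 to 2.55) more in mEF. The separate runs of the set gave 0.417 (0.339 to 0.512) and 0.584 (0.432 to 0.788). By distinct positions, 14 in mES against 20 in mEF, the ratio was 0.342 (0.160 to 0.711). Runs 1 and 2 share nearly all of their Malat1 positions, so they are not separate repeats of this difference.

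Within library set 2 no difference between the cell types was detectable. Malat1 stood at 5202 CPM (4782 to 5648) in mES and 4649 CPM (3906 to 5493) in mEF, a ratio of 1.12 (0.927 to 1.36). Distinct positions, 71 and 23, gave 1.25 (0.769 to 2.09). The records of this set include reads listed 2 times at the same place. On Malat1 these were 154 of 412 reads in mES (37.4%) and 5 of 133 in mEF (3.76%), against 32.1% and 10.6% over all reads of the set, and with the second copies dropped the log2 ratio went from 0.16 to -0.01.

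**Figure D2:**
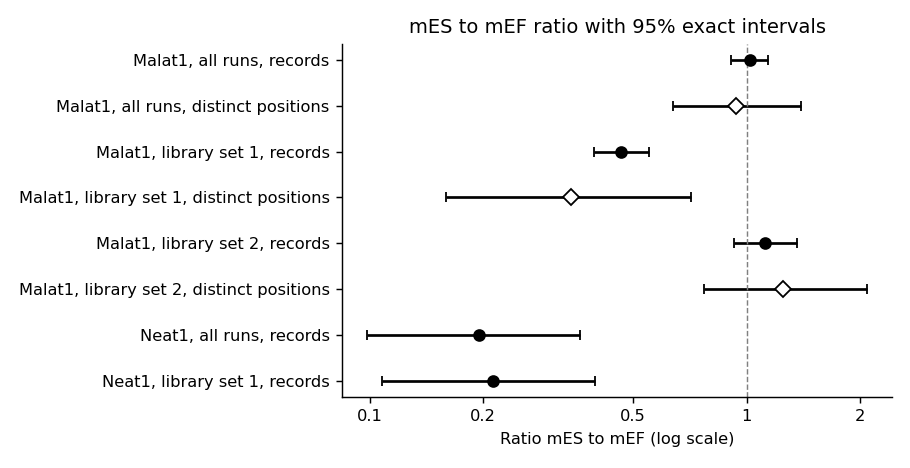
Ratio of mES to mEF on a log scale for Malat1 and Neat1, with 95% exact intervals as bars, filled circles for records and open diamonds for distinct positions. The Malat1 points of library set 1 lie below 1 (0.464 and 0.342), those of all runs and of set 2 have intervals that include 1, and the Neat1 points, which are for records alone, lie below 1. By distinct positions, which are not drawn for Neat1, its ratio over all runs was 0.234 (0.00397 to 4.50).

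The rise from set 1 to set 2 was larger than any of these differences between cell types. In mES, Malat1 was 13.9-fold (11.9 to 16.2) higher in set 2 by records and 14.9-fold (8.31 to 28.6) by distinct positions. In mEF it was 5.75-fold (4.69 to 7.03) higher by records and 4.08-fold (2.14 to 7.83) by positions. Of the loci with at least 50 records in both sets together, 1.65% in mES and 1.3% in mEF were over 4-fold higher in set 2, and Malat1 passed that fold in both. Its place by records among the loci with a record moved from 326 of 16686 to 5 of 9180 in mES and from 153 of 8593 to 5 of 3720 in mEF. The sets have unequal depths and differ in the 2 abundant classes given above. With the mitochondrial records and the chromosome 17 locus left out of the totals, Malat1 stood at 388 CPM in set 1 and 8796 CPM in set 2 in mES, and at 836 and 6987 CPM in mEF, so the gap was not smaller on that scale.

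The number of records per distinct position was similar for both cell types in set 1 and lower in set 2. A Malat1 position held on average 17.2 records in mES and 17.4 in mEF in set 1, and 7.97 and 6 in set 2. The 3 positions with the most records carried 47.3% of the mES and 38.6% of the mEF records in set 1, and 16.1% and 33.3% in set 2. The levels of set 1 thus rest on 14 positions in mES and 20 in mEF.

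By the protocol, an adaptor was ligated to the end of the cDNA, so the 5′ end of a record marks the base of the RNA at which reverse transcription had stopped. All 1350 records lay within the genes themselves and none in the 1000 nt on either side. The same windows held 0 records on the plus strand beside these 1350 on the minus strand, which allows a plus-strand share of up to 0.222%. No record on either RNA had a span longer than its read. The highest mapping score, taken as a single placement, was given to 803 of 807 mES and 485 of 485 mEF records on Malat1 and to every Neat1 record, and the other 4 records were at 1 position, base 588 of Malat1, in run 1.

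In set 1, the Malat1 records of stem cells and fibroblasts lay in different stretches of the RNA. In mES, 45.2% (38.8 to 51.7) of the 241 records began between bases 2001 and 3000 and 34.9% (28.9 to 41.2) after base 6000, and 7.05% (4.16 to 11.1) began in the first 1000 bases. In mEF, 70.0% (64.9 to 74.8) of the 347 records began in the first 1000 bases and 25.1% (20.6 to 30.0) between bases 3001 and 4000. The median record began at base 2021 in mES and at base 537 in mEF. By distinct positions the contrast in the first 1000 bases was 4 of 14 in mES (28.6%) against 12 of 20 in mEF (60%), smaller than by records. No interval was computed for these shares of positions. In mES, bases 2001 to 3000 and those after base 6000 held 4 positions each.

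In set 2, both cell types had records along most of the RNA. The first 1000 bases held 44.9% (40.7 to 49.1) of the 566 mES records and 38.4% (30.3 to 47.1) of the 138 mEF records, and 43.7% and 43.5% of the distinct positions. Bases 3001 to 4000 came next, with 21.4% (18.1 to 25.0) in mES and 28.3% (20.9 to 36.5) in mEF. The intervals of the cell types overlapped in both stretches. By records, the intervals did not overlap in 4 of the 7 stretches, each of which held few positions. Bases 1001 to 2000, 4001 to 5000, 5001 to 6000 and those after 6000 held 5, 8, 4 and 1 mES positions. In mEF the same stretches held 0, 1, 5 and 1 positions. The mES share was higher between bases 1001 and 2000, with 14.0% (11.2 to 17.1) against 0% (0 to 2.64), and between bases 4001 and 5000, with 11.0% (8.50 to 13.8) against 0.725% (0.0183 to 3.97). The mEF share was higher between bases 5001 and 6000, with 17.4% (11.5 to 24.8) against 6.36% (4.49 to 8.70), and after base 6000, with 10.1% (5.66 to 16.4) against 0.530% (0.109 to 1.54).

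**Figure D3:**
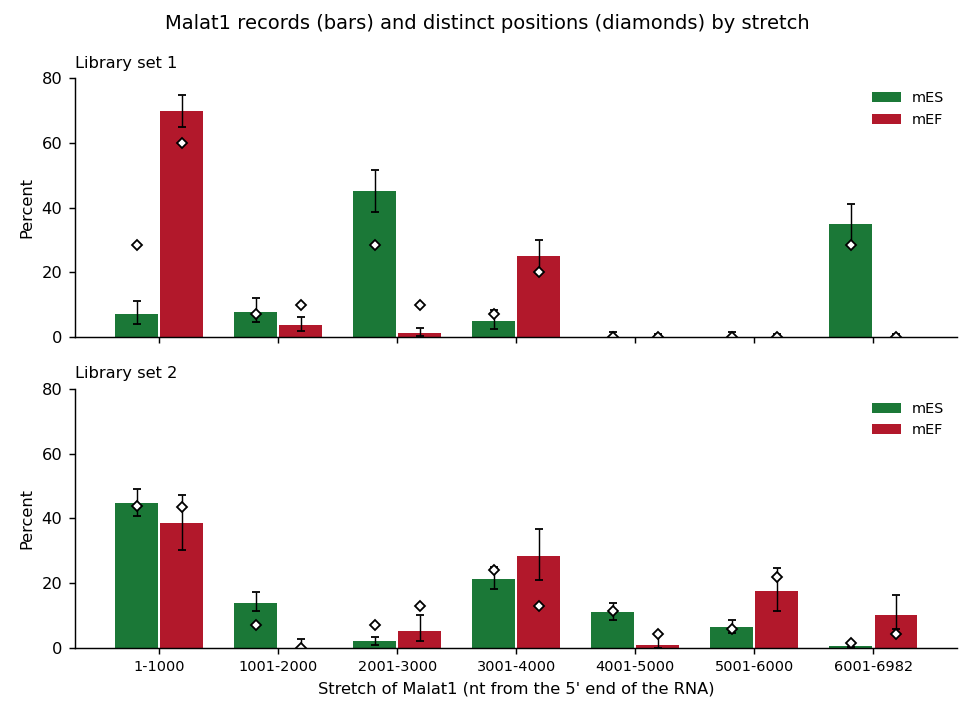
Percent of Malat1 records (bars, with 95% exact binomial intervals) and of distinct positions (diamonds) that began in each stretch of 1000 bases of the RNA, mES in green and mEF in red. In library set 1 (upper panel) the first stretch held 7.05% of mES and 70.0% of mEF records, and in set 2 (lower panel) it held 44.9% and 38.4%.

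The pooled shares hide this. Over all runs, 33.6% (30.3 to 37.0) of mES and 61.0% (56.5 to 65.4) of mEF records began in the first 1000 bases, while by distinct positions the shares were 41.7% and 50%. The mES share rests on run 3, without which it was 7.05%.

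At the very start of Malat1, fibroblast records were frequent. The first base, 5802671, was the mEF position with the most records of all, with 55, 21 and 15 records in runs 1, 2 and 3, or 91 in total (18.8% of the mEF records). In mES the same base had 2 records, both in run 3. Together with the next 5 bases, the start held 118 mEF records of set 1 (34.0%, 29.0 to 39.3) at 3 positions. It held 0 of the 241 mES records of that set, which allows a share of up to 1.52% by the exact interval. In set 2 it held 18 mES records (3.18%, 1.90 to 4.98) and 15 mEF records (10.9%, 6.21 to 17.3). Ends at the first base of the gene were thus recorded in mEF in every run and in mES in run 3 alone.

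At the other end of Malat1, stem cell records were frequent in set 1. In the last 500 bases, 84 mES records (34.9%, 28.9 to 41.2) lay at 4 positions, 442, 428, 278 and 240 nt before the 3′ end of the window, with 20, 27, 18 and 19 records. All 4 positions had records in both run 1 and run 2. None of the 347 mEF records of set 1 and none of the 566 mES records of set 2 lay in this stretch. In mEF, set 2 gave 14 records at 1 position, 142 nt before the end. In the GRCm38 entry, which is 1 nt longer than the mm9 window of 6982 nt, the run of 12 A lies 298 nt before the end. Set side by side by distance alone, the positions at 442 and 428 nt lie upstream of that run, and those at 278, 240 and 142 nt lie downstream of it. Mascrna spans 291 to 234 nt before the end, so the positions at 278 and 240 nt fall within it. The position at 142 nt lies past it. By distance, the records at these positions, 18 and 19 in mES and 14 in mEF, thus lie beyond the place of the cut. They are counted under Malat1 by the window rule.

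**Figure D4:**
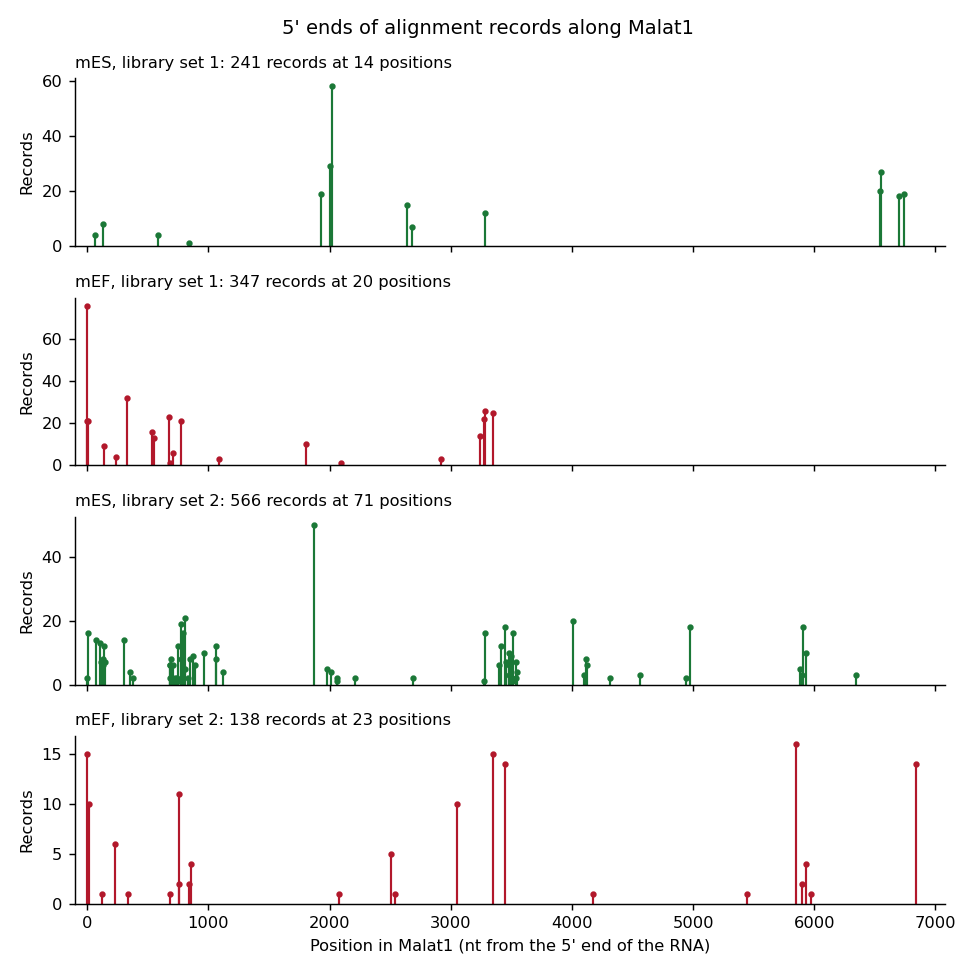
Records at each 5′ position of Malat1 (vertical axis, number of records) against the distance in nt from the 5′ end of the RNA, for mES and mEF in library sets 1 and 2. Set 1 shows few positions with many records, at the start in mEF and near bases 2021 and 6540 in mES, and set 2 shows 71 positions in mES and 23 in mEF.

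Of the positions with the most records, base 2021 (5800651) led in mES with 36, 22 and 0 records in runs 1, 2 and 3. It was followed by base 1872 (5800800) with 50 records, all of run 3, and by base 2001 (5800671) with 18, 11 and 0. After the first base, the mEF list went on with base 327 (5802345), which had 25, 7 and 0 records, and base 3282 (5799390), which had 14, 12 and 0. Base 3282 was also used in mES, with 7, 5 and 16 records, and was the only position of Malat1 seen in both cell types in set 1. Of the other 4 positions besides the first base, none had a record in the other cell type.

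Positions were repeated between runs of 1 set and seldom between sets or cell types. All 12 mES positions of run 2 and 17 of the 18 mEF positions of run 2 were also in run 1. From set 2, 1 of 71 mES positions (1.41%) and 1 of 23 mEF positions (4.35%) were in set 1, against 8.68% and 8.71% of all positions. Between cell types, 5 positions were shared over all runs, which is 5.95% of the mES and 11.9% of the mEF positions on Malat1, against 7.51% and 16.0% over the genome. The shared bases were 1, 684, 775, 3282 and 5897.

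Stretches of Malat1 gave no record start in any pool. The longest was the 684 nt between bases 1118 and 1803, followed by 473 nt between bases 4974 and 5448 and 466 nt between bases 3545 and 4012. In the joined loci of the genome-wide list, the first of these gaps divides Malat1 in 2. The part before it held 295 mES and 299 mEF records, and the part after it held 512 and 186.

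Neat1 was seen far less often than Malat1 and, by records but not detectably by distinct positions, was higher in fibroblasts. In mES it had 10, 4 and 0 records in runs 1, 2 and 3, or 18.6 CPM (10.2 to 31.3) in all. In mEF it had 28, 16 and 0 records, or 95.9 CPM (69.7 to 129). The ratio of mES to mEF was 0.195 (0.0985 to 0.362), or 5.14-fold (2.76 to 10.2) more in mEF, and within set 1 it was 0.213 (0.108 to 0.396). Runs 1 and 2 gave 0.239 (0.104 to 0.508) and 0.166 (0.0405 to 0.516), but they hold the same 3 positions and are not separate repeats. A 4-fold excess in mEF was common, with 24.6% of loci past it, although that share depends on the minimum (111 of 750 loci with at least 200 records), and the joined loci of Neat1 itself, with 44 and 14 records, are below the minimum of 50.

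The Neat1 records lay at very few positions. All 14 mES records began at 1 base and the 44 mEF records at 2 bases, so by distinct positions the ratio was 0.234 (0.00397 to 4.50), and no difference was detectable. In set 2, 0 records allow up to 33.9 CPM for mES and 124 CPM for mEF by the exact interval. The set 1 levels were 21.8 and 102 CPM, so no change of Neat1 between the sets was detectable. By records, the exact intervals of the ratio of set 2 to set 1 reach up to 1.78 in mES and 1.26 in mEF, below the rises of Malat1. These limits take the copies at 1 and 2 positions as independent. By distinct positions, with 3 counts in place of 0, the Neat1 ratios were 8.80 in mES and 5.32 in mEF. The Malat1 rises by positions were 14.9-fold and 4.08-fold, so Neat1 has too few positions to settle whether it rose as Malat1 did.

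Along the short isoform, the Neat1 records lay mostly near the 3′ end of its mm9 window, which at 3177 nt is longer than the 3004 nt of Neat1-202. The mES position was 103 nt before the end (5842405), with 14 records. In mEF, 30 records (68.2%, 52.4 to 81.4) lay 154 nt before the end (5842456), with 21 in run 1 and 9 in run 2, and 14 records lay 1244 nt before it (5843546), with 7 in each run. None of the 3 positions was shared between the cell types. No record began in the first 1000 bases of Neat1, which allows a share of up to 23.2% in mES and 8.04% in mEF. In library set 1, which holds every Neat1 record, that stretch of Malat1 held 7.05% of mES and 70.0% of mEF records. The mES share of Malat1 thus lies within the limit for Neat1. The limits take the Neat1 records at 1 and 2 positions as independent, and 1000 bases are a larger part of the shorter Neat1. The part that belongs to the long isoform alone lies past this end, first in the 1000 nt beside the Neat1 window and then between the windows.

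**Figure D5:**
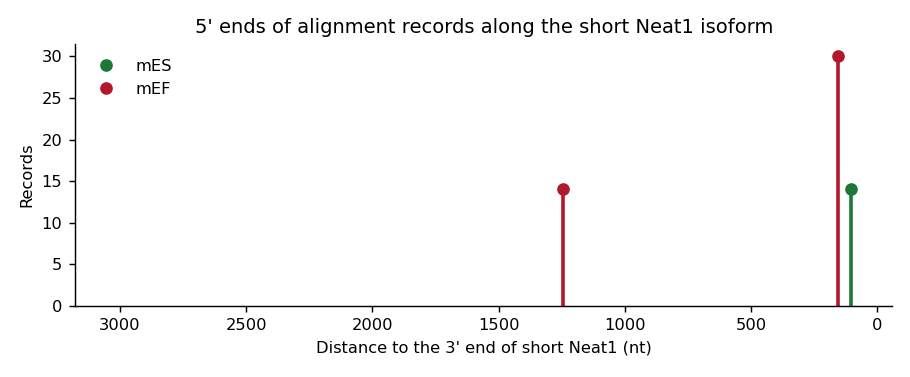
Records at each 5′ position of Neat1 (vertical axis, number of records) against the distance in nt to the 3′ end of the short isoform, over all runs, mES in green and mEF in red. The 3 positions held 14 records in mES and 30 and 14 in mEF, and 2 of them lie within 154 nt of the end.

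Per kb of window, Malat1 records were denser than Neat1 records in each cell type. Since the cDNA was primed at runs of A, records need not scale with length, so these values describe density alone. The Neat1 values rest on 1 position in mES and 2 in mEF, and the intervals do not cover this. The values were 154 against 5.87 CPM per kb in mES, a 26.2-fold (15.5 to 48.2) difference. In mEF they were 151 against 30.2 CPM per kb, a 5.02-fold (3.68 to 6.99) difference. In set 1 alone the folds were 7.83 (4.58 to 14.5) and 3.59 (2.62 to 5.03). Without run 3 the fold was thus far smaller in mES, while in mEF the intervals with and without it overlapped.

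The 37630 nt between both windows, which the long Neat1 isoform crosses in part, held 1 further position on the minus strand. This position, 5806754, had 7, 4 and 0 mEF records in runs 1, 2 and 3 (24.0 CPM) and no mES record. It lay 4083 nt upstream of the start of Malat1 and 35548 nt past the end of the short Neat1 isoform. No record was found on either strand in the 10000 nt beyond either window. The length of the long isoform in mm9 was not used here, so this position was assigned to neither gene.

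Over the 6 pools of cell type and run, 10 of 4319 loci had a log2(CPM + 1) pattern with a Pearson correlation above 0.9 with that of Malat1, given as a description since the pools share libraries and depth. The 3 most like were chr2:98506398-98507407 on the plus strand (0.979), chr6:3150766-3151528 on the plus strand (0.961) and chr4:126706919-126707885 on the plus strand (0.949). The first had 30% of its records at the highest mapping score, so that its records have mostly more than 1 placement. All 3 had their highest levels in run 3, the third with 239 CPM in mES and 270 CPM in mEF. For Neat1, 1094 loci passed 0.9, so the 3 most like it, chr17:37085895-37086422 on the minus strand, chr4:47495871-47496039 on the plus strand and chr7:121190926-121191403 on the minus strand, are a few among many with records in runs 1 and 2 and none in run 3.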

How the data were processed

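The series holds 6 libraries of barcoded cDNA from single cells. Per the labels, reads were aligned with TopHat to mm9; versions are not given in the sources used here. The authors deposited 1 list of alignments per cell type, with start, end, strand and a mapping score that takes 4 values, of which the highest was read as a single placement. The deposited list of 1152 barcodes was not used, since the records carry no barcode. The 5′ end was the record's end on the minus strand, counted from 1, and base 1 of each RNA was the last base of its window. Runs were read from the read names. Ratios used record totals, with 3 counts in place of 0, and exact Poisson or binomial intervals at 95% by Python 3.11.15, numpy 2.4.6, pandas 2.3.3 and scipy 1.17.1. With 1 pool per cell type no test was made. Depth limits each value: 3 counts equal 4.00 CPM (mES) and 6.54 CPM (mEF). The steps for loci and ratios were tested on simulated data. The genes named are both members, with their 3 positions of most records in each aggregate and the 3 loci of most like pattern. The members, lists and rules were chosen with earlier results of these data known. Alternatives covered positions, scores, windows, runs, repeated records, totals, bins and scaling. Cell type markers, other nuclear RNAs and the long Neat1 isoform were not analysed here, as no mm9 annotation was used.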

Additional observations from a re-analysis of the deposited data

Results flagged for a closer look

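The Malat1 comparison differed between the library sets. The log2 ratio of mES to mEF was -1.11 in library set 1, where runs 1 and 2 were both lower in mES, and 0.16 in library set 2, where run 3 was slightly higher in mES with an interval that includes 0, and with the second copies of reads dropped its value was -0.01. The difference between the sets was not tested, since each set is 1 pool per cell type.

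Outside the windows of both genes, 11 mEF records on the minus strand began at 1 position between them, where mES had none. They were singled out as a signal in a stretch that the comparisons do not use, and all were from runs 1 and 2.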

How the results depend on the processing

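The log2 ratio of mES to mEF for Neat1 (-2.36) ranged from -2.92 to -2.03 over 13 alternatives, 7 of which keep the same 14 and 44 records and could change the totals at most. Run 3 alone gave no ratio, and the alternatives by distinct positions rest on 1 against 2. That of Malat1 (0.02) became -0.23 without second copies, 0.55 without run 1, -1.11 without run 3, -1.26 in run 1 alone and -0.78 in run 2 alone. It was 0.32 under median-of-ratios scaling, which lowers the mES to mEF size ratio by 0.29 on the log2 scale. Among alternatives chosen after seeing the data, it was -1.55 by distinct positions without run 3, 0.32 by distinct positions in run 3, and 0.33 in run 3 and -1.11 without run 3 with totals that leave out the mitochondrial chromosome and the chromosome 17 locus. The share of mES Malat1 records in the first 1000 bases (33.6%) was 41.7% by distinct positions, 39.6% without run 1, 37.0% without run 2, 7.05% without run 3, 8.39% in run 1, 4.65% in run 2 and 44.9% in run 3. The mEF share (61.0%) was 50% by distinct positions, 49.2% without run 1, 70.0% without run 3, 72.3% in run 1 and 38.4% in run 3. Distinct positions without run 3 gave 28.6% in mES, and those of run 3 gave 43.7% in mES and 43.5% in mEF. Run 3 without second copies gave 45.9% and 39.8%. The first 500 bases held 14.5% in mES and 40.4% in mEF. Loci over 4-fold numbered 1303 higher in mES and 1061 higher in mEF, of 4321. They numbered 4950 and 3598 of 15083 with a minimum of 10 records, 85 and 111 of 750 with 200, and 1 and 13 of 132 by distinct positions. These follow from the changed minimum and unit. For the changes between runs the cause was not tested. No paired analysis was possible because no test was made and the labels give no replicate numbers of a cell type, and the ratios within runs stand as values. Windows extended to the long Neat1 isoform were not run, as no mm9 annotation was used. Neat1 rests on 14 and 44 records at 3 positions.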
